A study of Homo sapiens with 24 samples.

Results

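Sites occupied by Rbap46 were described over all 30475 lines of the authors' deposited comparison of Rbap46 with input chromatin, out of 32666 sites in both tables used from the series. Members were chosen by that table alone, and the table itself ended at a false discovery rate (FDR) of 0.05. A difference from input, in either direction, was thus a condition of entry and is given here as a description. The libraries were labelled as hTert-HME1 cells, mammary epithelium of human origin made immortal by telomerase. Chromatin was crosslinked with formaldehyde, extracted from nuclei and sonicated. The Rbap46 group held 2 libraries precipitated with an antibody against Rbap46, and the input group 2 libraries made without antibody. Cells of both groups were labelled untreated, and neither carried a short hairpin RNA. All libraries carried the label of 1 cell line. Whether the libraries of a group were separate cultures is not stated, so their spread may be technical. Defining markers of mammary epithelium were not analysed here, because no annotation of genome build hg19, which the submitters' processing notes name, was used. The labelled identity of the cells was therefore not tested. Positions are those of the table, read as hg19, and no gene names or sequences were attached to them.

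Rbap46, also called RBBP7, is a histone-binding protein folded as a propeller of WD repeats. It binds histone H4 and is the partner subunit of the acetyltransferase HAT1, which acetylates newly made H4 before its assembly into chromatin. The same protein is a subunit of the NuRD and Sin3 deacetylase complexes and of Polycomb repressive complex 2, so occupancy measured with this antibody is not specific to the complex with HAT1.

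Nearly every deposited site had more Rbap46 than input signal. At FDR under 0.05, 30418 sites in the authors' deposited table lay above input, which was 99.8% of the deposited sites. The relation of p-value to FDR by rank places the number of sites the authors tested between 80831 and 80834, and of these 37.6% were above input. Sites below input numbered 50, which was 0.164% of the deposited and 0.0619% of the tested sites. The remaining 7 lines stood at an FDR of exactly 0.05. Tested sites outside the table were not analysed here, so every median below is that of sites that passed the limit.

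Enrichment was moderate and narrowly spread. The level of a group is the authors' log2 of the mean normalized read count over its libraries, and the log2 fold is the Rbap46 level minus the input level. Over sites above input in the authors' deposited table the log2 fold ranged from 0.33 to 4.15, with 5% of sites under 0.68 and 5% over 1.65. The interquartile range was 0.40 around a median of 1.05. A log2 fold of at least 1, which is 2-fold, was reached by 17678 sites in the authors' deposited table (58.0% of deposited sites). By band of log2 fold in the authors' deposited table, 9647 sites lay between 0.75 and 1 and 14663 between 1 and 1.5. A further 2720 sites lay between 1.5 and 2. The 2 to 3 band had 288 sites, and 7 sites exceeded 3. Most of the sites thus sat near 2-fold and the strongly enriched tail was thin.

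Levels varied far more between sites than enrichment did. The interquartile range of the authors' mean was 1.11 for Rbap46 and 1.08 for input on the log2 scale. In normalized reads, the median site had 115 in Rbap46 and 57.3 in input. The 5th and 95th percentiles were 45.9 and 278 in Rbap46 and 19.3 and 124 in input. Both levels rose and fell together, with a Spearman correlation of 0.93 across the 30418 sites. These values share libraries, mappability and the FDR limit, and the correlation is a description only.

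**Figure D1:**
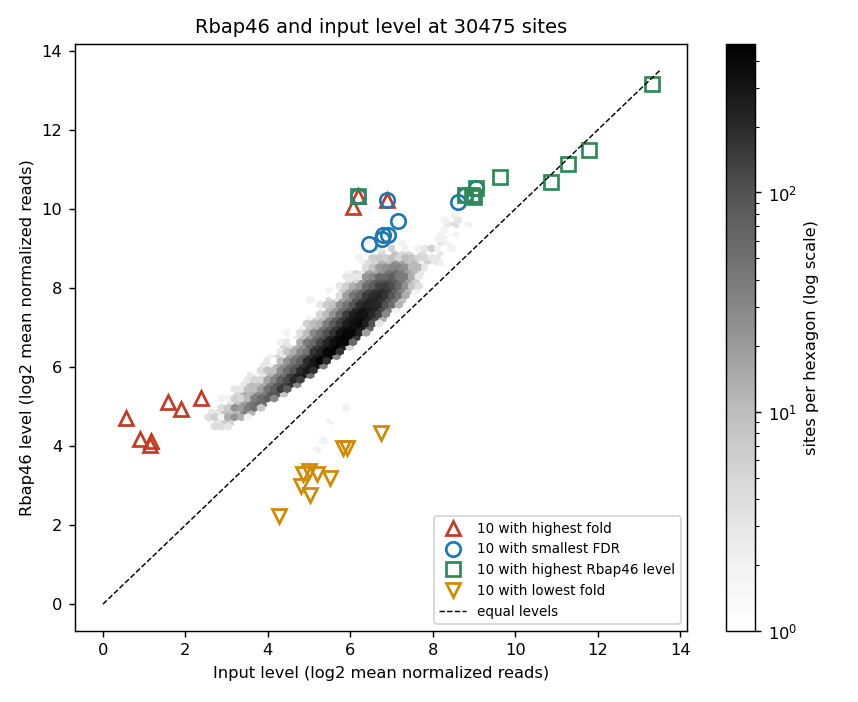
Rbap46 level (vertical) against input level (horizontal), both log2 mean normalized reads from the authors' deposited table, for all 30475 sites as shaded hexagons; open symbols mark the 10 sites with the highest fold, smallest FDR, highest Rbap46 level and lowest fold. Most sites form a band about 1 log2 unit above the dashed line of equal levels, while 4 of the 10 highest Rbap46 levels lie just below that line.

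The relation of fold to read number was not monotonic. Sites above input were divided into 10 sets by overall concentration, the log2 mean of all libraries. In the authors' deposited table the median log2 fold was 1.23 with the fewest reads, fell to 0.95 in the fourth set and rose to 1.21 in the set with the most reads. The share of sites that reached a log2 fold of 1.5 was 19.9% in the first set, lowest in the third at 5.06%, and 21.0% in the last. The smallest fold in the table fell throughout, from 0.88 in the first set to 0.63 in the fourth and 0.33 in the last. The part of the FDR limit in these medians was not tested, since sites that did not pass it were not analysed here.

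An error for each fold could be computed from its p-value, although values per library were not used. The submitters' processing notes name DiffBind and DESeq2, and a standard error was computed as the fold divided by the normal deviate of its two-sided p-value. It takes the p-value to come from a Wald test on the printed fold, which is not stated, and is called the implied standard error. Its median over all sites was 0.26 on the log2 scale. It fell from a median of 0.43 in the set with the fewest reads to 0.18 in that with the most. Within this assumption, the fold of the median site above input stood 3.78 implied standard errors from 0. By construction this ratio restates the p-value, and the FDR limit bounds it from below.

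This error was almost a function of concentration alone. Each site was set against the median of the 200 sites nearest in concentration, or, at either end of the range, of those at that end. At 98.9% of the 30475 sites the error was within 10% of that median. At these sites the p-value of the table thus followed closely from the fold and the read number. The implied standard error there is therefore not a measure of the spread between libraries at the site.

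A small set of sites stood apart from this curve with nothing in between. Among the 28931 sites with concentrations between 5 and 8.5, 68 had an implied standard error from 1.46 to 1.92 times that of their neighbours in concentration. At all others the ratio was between 0.947 and 1.17. The 68 sites lay on 18 chromosomes with at most 7 on any of them. The median log2 fold of the set was 1.26 and that of the others 1.04 in the authors' deposited table. With a larger error a larger fold is needed to pass the FDR limit, so these medians were not compared further. The set was noticed after the values were seen.

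**Figure D2:**
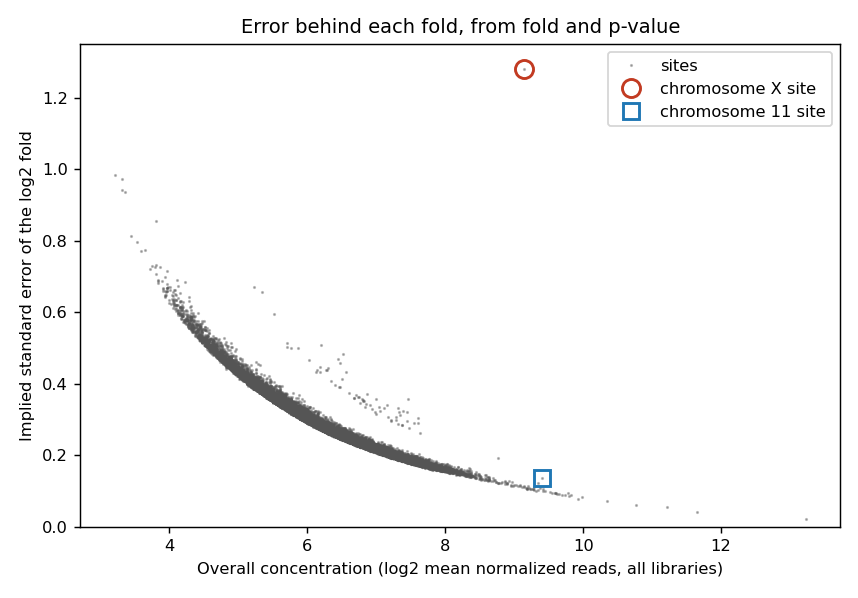
Implied standard error of the log2 fold (vertical) against overall concentration (horizontal, log2 mean normalized reads of all libraries), 1 point per deposited site. Nearly all sites follow 1 falling curve, 68 sites form a detached band above it, and the chromosome X site stands alone at 1.28. The chromosome 11 site, of like level to the chromosome X site, lies at 0.137.

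The highest folds fell into a group with many reads and a group with few. Of the 10 sites with the highest fold, 7 had an input level under 3. The other 3 lay on chromosomes 11, X and 6, with input levels from 6.07 to 6.88 and Rbap46 levels of 10.05 or more.

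The leading site by both fold and FDR was on chromosome 11 from 118306555 to 118307055. The authors' means there were 1287 normalized reads in Rbap46 and 72.5 in input, a 17.8-fold difference in the authors' deposited table. Its log2 fold was 4.15, with an implied standard error of 0.137, near that of sites of like read number. Enrichment of this size was not seen at the neighbouring sites. The authors' deposited table held 3 other sites within 10 kb, at 758, 1256 and 2196 bp, with log2 folds of 1.13, 1.43 and 1.27. The site at 1256 bp was 1 of the 68 of raised error, at 1.82 times that of its neighbours in concentration.

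The site on chromosome 7 from 8857168 to 8857668 also reached 4.15 on the log2 scale in the authors' deposited table, but on far fewer reads. Its means were 26.4 normalized reads in Rbap46 and 1.48 in input, and its implied standard error was 0.854. The 6 others of low input, on chromosomes 10, 2, 18, 9, 11 and 1, had between 16.2 and 37.3 normalized reads in Rbap46. Their log2 folds in the authors' deposited table ran from 2.85 to 3.54 with implied standard errors from 0.597 to 0.984.

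The site on chromosome X from 77359300 to 77359800 was the one exception among sites of high level. Its authors' means, 1060 normalized reads in Rbap46 and 67.2 in input, resembled those of the leading site on chromosome 11. Its FDR was 0.00722 in the authors' deposited table. The implied standard error of 1.28 was the largest of all 30475 sites. Sites with an Rbap46 level of 9 or more and an input level under 8 numbered 33. The other 32 had implied standard errors from 0.123 to 0.164 and FDR values of at most 2.31e-14 in the authors' deposited table. The nearest site above input was 35029 bp away. Values per library, which would show whether the Rbap46 libraries differed at this site, were not used here.

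The remaining site with a high fold and many reads lay on chromosome 6 from 26204530 to 26205030, in the part of the short arm that holds the major histone gene cluster. Its means were 1193 normalized reads in Rbap46 and 118 in input. It had an implied standard error of 0.124 around the log2 fold of 3.34 that the authors' deposited table gives. Its 3 neighbours within 10 kb had log2 folds from 1.02 to 1.1 in the authors' deposited table. As on chromosome 11, no other site within 10 kb had enrichment of this size. Bases between sites have no values here, and 501 bp is the width of 98.4% of sites. The extent of the enrichment thus cannot be told.

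Sites with the smallest FDR were a different set, with 2 of 10 shared with the highest folds. They lay on 6 chromosomes, 3 on chromosome 6 and 3 on chromosome 22. The other 2 sites of chromosome 6 ran from 35227096 to 35227596 and from 26123066 to 26123566, with log2 folds of 2.53 and 2.54 in the authors' deposited table. Outside these chromosomes, the sites on chromosome 1 from 211848988 to 211849488, chromosome 19 from 50490364 to 50490864 and chromosome 2 from 172864642 to 172865142 had log2 folds of 2.44, 2.66 and 2.46 in the authors' deposited table. Their Rbap46 means ran from 553 to 653 normalized reads and their input means from 87.4 to 120.

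The 3 sites of chromosome 22 had the lowest folds and the highest input levels of these 10. They started at 22020169, 21983449 and 22221841, with log2 folds of 1.5, 1.59 and 1.58 in the authors' deposited table. Of all sites above input, 9.91% reached a log2 fold of 1.5, so these folds were also high. Their input means of 526, 437 and 388 normalized reads were 9.19, 7.62 and 6.77 times the median input of 57.3. Their implied standard errors, 0.0824, 0.0931 and 0.0943, were correspondingly small. Sites above input within 10 kb of these 3 also had high input levels, from 7.65 to 8.75 against a median of 5.84. Copy number there was not tested. Rank by FDR thus placed sites of lower fold and high input beside sites of higher fold.

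Ranking by Rbap46 level brought in more sites of high input. Of the 10 sites with the highest Rbap46 level, 7 had an input level of 9 or more and 4 were below input. The highest of all, on chromosome 7 from 61968750 to 61969250, had 9090 normalized reads in Rbap46 and 10156 in input. The authors' deposited table gives a log2 fold of -0.16 there. The highest Rbap46 level among sites above input, 10.82, was that of the chromosome 9 site spanning 134000727 to 134001227, with an input level of 9.64. The authors' deposited table gives it a log2 fold of 1.17. Of these 10 sites, 1 was among those of highest fold, namely the leading site of chromosome 11.

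**Figure D3:**
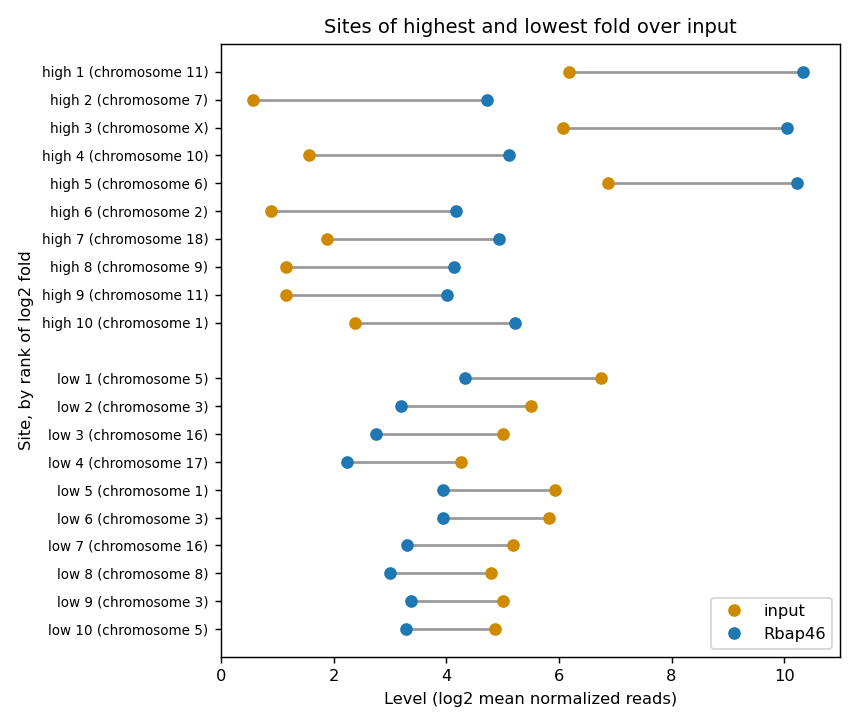
Input and Rbap46 level (horizontal, log2 mean normalized reads, authors' group means) at the 10 sites of highest and the 10 of lowest fold, 1 line per site, joined by a grey bar. Of the high sites, 3 have input levels above 6 and 7 lie under 3, while all low sites have Rbap46 levels of at most 4.33.

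Sites below input ranged from satellite-rich regions of very high input to sites with few reads. At 6 of the 50 the input level was 9 or more, and log2 folds were small, from -0.75 to -0.15 in the authors' deposited table. They lay on chromosomes 1, 6, 7, 10 and 16, beside the centromere or the heterochromatin next to it in hg19, where satellite repeats are known to lie. A further 7 had input levels between 7 and 9 and log2 folds from -1.20 to -0.42 in the authors' deposited table. The other 37 had input levels under 7 with a median in the authors' deposited table of -1.32 on the log2 scale.

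The lowest fold was on chromosome 5 from 79946375 to 79946875. The authors' means were 20.1 normalized reads in Rbap46 and 108 in input, and the log2 fold of -2.43 had an implied standard error of 0.337. The next lowest were on chromosome 3 from 96335933 to 96336433 and on chromosome 16 from 33293852 to 33294352. There Rbap46 had 9.13 and 6.77 normalized reads against 45.3 and 32.2 in input. Among the 10 sites of lowest fold the implied standard error ran from 0.337 to 0.772 and the log2 fold from -2.43 to -1.56 in the authors' deposited table.

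Sites below input lay apart from those above it. An Rbap46 site above input was within 10 kb of 4 of the 50, or 8%, and the median distance was 43.7 kb. Of sites above input, 57.4% had another such site within 10 kb. Another site below input was within 10 kb of 10 of the 50, and these 10 formed runs beside the centromeric regions of chromosomes 7, 10 and 16.

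Rbap46 sites above input came in short runs as well as alone. Gaps between neighbouring sites on a chromosome numbered 30395 and had a median of 19129 bp, with quartiles of 4926 and 59825 bp. The distance from a site to its nearest neighbour had a median of 7080 bp. A neighbour was within 1 kb of 5967 sites (19.6%), within 10 kb of 17452 (57.4%) and within 100 kb of 28737 (94.5%). Only 42 sites had none within 1 Mb. The distribution of gaps was broad, with its largest share between 20 and 50 kb (6167 gaps, 20.3%) and a shoulder near 1 kb. Gaps from 500 to 1000 bp numbered 1503 and those under 100 bp 289. The lower end is limited by the table, whose sites are 501 bp wide in 98.4% of cases and up to 1438 bp where the width is larger.

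**Figure D4:**
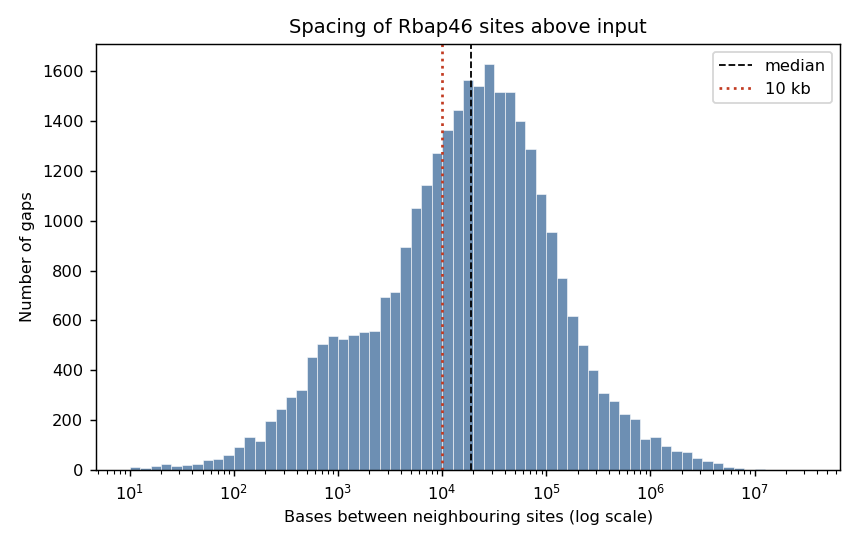
Number of gaps (vertical) by the bases between neighbouring sites above input (horizontal, log scale), with the median of 19129 bp dashed and 10 kb dotted. The main mode lies above 10 kb and a shoulder stands near 1 kb; the 22 gaps under 10 bp are not drawn.

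Joining sites with gaps of at most 10 kb gave 19280 groups. Of these, 12966 held 1 site and 3811 held 2. Groups of 10 or more numbered 33 and held 385 sites. The largest group ran from 26285488 to 26352622 on chromosome 6, also in the region of the histone gene cluster, with 19 sites in 67.1 kb. Its log2 folds in the authors' deposited table ranged from 0.67 to 2.29 with a median of 1.07. The next was a group of 16 sites on chromosome 16 from 710537 to 778553, where log2 folds in the table deposited by the authors had a median of 1.28 and ranged from 0.65 to 2.13. A group of 15 sites on chromosome 3 from 5017699 to 5065427 had a lower median, of 0.93. Groups of 14 sites were tied, on chromosomes 7, 9, 11 and 19, with median log2 folds of 0.84, 0.92, 0.94 and 1.08 in the authors' deposited table. Of these 7 runs, those on chromosomes 6, 16 and 19 had medians above the 1.05 of all sites above input, and the other 4 had lower ones.

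Median levels rose with the number of sites in a group, while median folds differed little. In the authors' deposited table the median log2 fold was 1.09 over sites alone in their group, 1.04 in groups of 2, 1.03 in groups of 3 to 4 and 1.00 in groups of 5 to 9. It was 1.03 in groups of 10 or more. A log2 fold of 1.5 was reached by 11.6% of sites alone in their group, 8.0% of those in groups of 5 to 9 and 11.9% of those in groups of 10 or more. Median input levels over the same sets rose from 5.73 to 6.18, and Rbap46 levels from 6.75 to 7.23. By distance, sites whose nearest neighbour was 100 kb to 1 Mb away had a median input level of 5.32 and, in the authors' deposited table, a median log2 fold of 1.16. For those with a neighbour at 1 to 10 kb the values were 5.93 and 1.02, at 10 to 100 kb 5.78 and 1.07, and within 1 kb 5.86 and 1.06. At the 42 sites with no neighbour within 1 Mb the median log2 fold was 1.3 in the authors' deposited table. From 1 kb outward the median fold thus rose with distance, while that within 1 kb was above that at 1 to 10 kb. Read number moves with this rise. Within the set with the most reads, when sites were divided by concentration into 3 equal sets, the median log2 fold was still 1.09 with a neighbour within 10 kb and 1.18 with none within 100 kb in the authors' deposited table. In the middle set the values were 0.96 and 1.06, and in the set with the fewest reads 1.04 and 1.21. With the nearest neighbour at 10 to 100 kb the medians lay between these. They were 1.15 with the most reads, 0.975 in the middle set and 1.09 with the fewest. These differences within the 3 sets are between medians over many sites. The implied standard error of 1 site does not measure the error of such a median, and the differences were not tested.

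The log2 fold of a site was only weakly correlated with that of its neighbour. Over 3182 pairs of adjacent sites with a gap under 1 kb, the Spearman correlation of log2 fold was 0.087, while that of input level was 0.30. At gaps of 10 to 100 kb, with 14359 pairs, the values were 0.069 and 0.20. The median absolute difference of log2 fold between neighbours was 0.26 under 1 kb and 0.27 at 100 kb and over, which is about the implied standard error of a typical site. Against an interquartile range of 0.40 for log2 fold, an error of this size by itself lowers a correlation of folds. How far neighbours share enrichment thus cannot be told from these values. Pairs share libraries and local copy number, so these correlations are descriptions. In the 2503 groups of 3 or more sites, the median range of log2 fold was 0.50, and the highest site exceeded the next by a median of 0.19.

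The longest stretches without a site above input lay on chromosomes 1, 9 and 16, with 21.8, 21.0 and 12.8 Mb. They ran from 120925819 to 142717292, from 45442196 to 66458243 and from 33619360 to 46406033, and each includes the centromere of its chromosome in hg19. The next, of 10.4 Mb on chromosome X from 89713477 to 100075130 and of 10.3 Mb on chromosome 4 from 57904635 to 68166125, include none. Of the 2954 windows of 1 Mb between the first and the last site of each chromosome, 674 held no site above input. Bases to which reads cannot be mapped were not set aside here. A stretch or window without a site is thus not shown to lack Rbap46. The fullest 295 windows held 39.4% of the sites, and the median window held 6. The fullest, with 106 sites, was on chromosome 19 from 1 to 2 Mb. It was followed by 49 to 50 Mb of chromosome 19 with 90 sites, and by 27 to 28 and 26 to 27 Mb of chromosome 6 with 88 and 84.

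Density differed 7.60-fold between chromosomes, while enrichment hardly differed. Sites above input per Mb, between the first and last site, were 34.5 on chromosome 19, 22.1 on 22, 21.9 on 17, 14.4 on 16 and 14 on 1. At the other end stood chromosome 13 with 4.54, X with 4.92, 4 with 5.30, 18 with 5.52 and 5 with 7.31. Median gaps ran from 10.5 kb on chromosome 19 to 47.4 kb on chromosome 13. The median log2 fold per chromosome ranged only from 0.99 to 1.15 in the authors' deposited table, with chromosomes 1 and 21 lowest and chromosome 13 highest. Median input levels ranged from 5.28 on chromosome 13 to 6.12 on chromosome 1, and the 4 chromosomes of lowest median input (13, X, 14 and 18) had median folds of 1.15, 1.12, 1.13 and 1.07.

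The number of sites followed the number of genes more closely than length. The table of gene names used, of assembly GRCh38.p14, places 19974 protein-coding genes on the 23 chromosomes, and only the counts per chromosome were taken from it. Across the 23 chromosomes the Spearman correlation of sites above input with protein-coding genes was 0.94, and with the span in Mb 0.51. There were 1.52 sites per protein-coding gene in all. Chromosome 19, densest by length, had 1.40 sites per gene, and chromosome 13 had 1.28. Chromosome X had 0.882, lowest of the 23, followed by 13, and chromosome 10 had the most at 1.83. Counts per chromosome also depend on copy number and mappability, whose part was not tested. The median input level of chromosome X, 5.30, stood beside that of chromosome 13, at the low end.

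**Figure D5:**
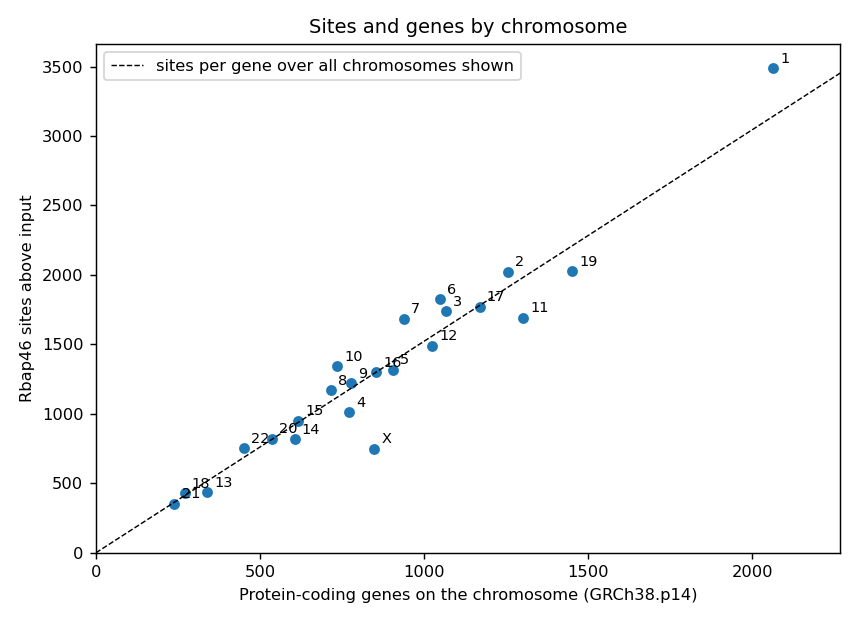
Rbap46 sites above input (vertical) against protein-coding genes (horizontal) for each of the 23 chromosomes, labelled by name; the dashed line is the overall 1.52 sites per gene. Most chromosomes lie near the line, chromosome 19 included, and chromosome X lies well below it with 748 sites for 848 genes.

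H3K9ac, acetylation of histone H3 at a lysine of active promoters, was measured by the authors in shControl and shHAT1 cells of the same labelled line. Of sites above input, 1639 (5.39%) overlapped by at least 1 bp a site with lower H3K9ac in shHAT1 cells in the authors' deposited table, a direction that 99.2% of its sites had. That H3K9ac comparison was limited to an FDR of 0.1, which is looser than the 0.05 of the Rbap46 sites. The share rose with Rbap46 and input reads together, from 0.362% in the set of lowest concentration to 19.8% in that of highest. Of the 10 sites with the smallest FDR, 2 overlapped such a site. They were that of chromosome 6 from 26204530 and that of chromosome 2 from 172864642, with shControl levels of 9.30 and 9.09 and shHAT1 levels of 8.39 and 8.04 in the authors' deposited table. The H3K9ac FDR was 0.0621 on chromosome 6, which is over 0.05, and 0.0151 on chromosome 2. Within overlapping sites, Rbap46 and H3K9ac folds had a Spearman correlation of -0.075 across 1639 sites. Sites without H3K9ac change were not analysed here, and the test behind each table has more power where reads are many.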

How the data were processed

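ChIP-seq of Rbap46 (2 libraries) and input (2 libraries) was used as 1 table of the authors' comparison. The submitters' processing notes name hg19, cutadapt 1.8.1, Bowtie2, SAMtools 1.2, Picard 1.92, MACS2 2.1.0, R 3.3.1, DiffBind and DESeq2, without role or order. Per the file headers, the values the authors deposited are log2 concentrations (overall and by group), a log2 fold, a p-value and an FDR per site. The columns are group means, so no SD, replicate check or model fit was computed, and depth per library is unknown. The fold equalled the difference of group levels within 0.01. The design foresaw no test of its own. Computed here were counts, quantiles, gaps between sites, groups of sites within 10 kb, implied standard errors and overlap of at least 1 bp with the second deposited table, of H3K9ac (3 libraries per arm). Scripts were tested on simulated data.

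Sites named were, at FDR under 0.05, the 10 of highest fold, smallest FDR, highest Rbap46 level and lowest fold, the 5 largest groups with ties, the 5 longest gaps and the 5 fullest and emptiest chromosomes. Other sites were chosen after their values were seen. Gene lists and cell type markers were not used, for want of an annotation of hg19. Members and lists were chosen with earlier results of these data known. The alternatives were other limits on FDR, fold, concentration, chromosome, distance and width. Tables were made with pandas 2.3.3, numpy 2.4.6 and scipy 1.17.1 under Python 3.11, and figures with matplotlib 3.10.9.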

Additional observations from a re-analysis of the deposited data

How the results depend on the processing

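For the counts and the median gap, 12 of 23 alternatives stayed within 1.5 times and 11 did not. The median log2 fold of 1.05 was between 1.03 and 1.22 under the 7 alternatives run for it. No spread between replicates was at hand to judge these shifts, and the stricter limits on FDR and fold raise it by construction. The 30418 sites above input became 15567 at FDR under 0.001 and 17678 with at least a 2-fold difference. The 50 sites below input became 19 at FDR under 0.01, 12 under 0.001, 29 with at least a 2-fold difference and 16 above the 25th percentile of concentration. The median gap of 19129 bp became 39164 bp at FDR under 0.001 and 42328 bp with at least a 2-fold difference. Sites with a neighbour within 10 kb, 17452, became 11198 at FDR under 0.01, 6325 under 0.001 and 6733 with at least a 2-fold difference. Each of these limits leaves fewer sites by construction. Leaving out sites with an implied standard error over 1.5 times that of sites of like concentration, chosen after seeing the data, left 30355 sites above input. No paired analysis was possible because the table holds group means, and leaving out a library or another normalization was not run for the same reason. Among sites above input in the set with the fewest reads, the smallest log2 fold that passed the FDR limit was 0.88. Whether weaker enrichment was present at such sites was not tested.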
